A study of Homo sapiens with 2 samples.

Results

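The levels of 10 collagen genes were described in single-cell RNA data of 2 human breast cancer lines. They are COL1A1, COL1A2, COL2A1, COL3A1 and COL5A2 (chains of fibrillar collagens), COL4A1 and COL4A2 (chains of type IV collagen), COL6A1 and COL6A2 (chains of type VI collagen) and COL9A3 (a chain of type IX collagen). These are 10 of the 41 collagen genes and of the 30796 genes listed in the files, and all 10 were matched to a gene identifier. They were chosen by name, with the difference between the lines and the variation between CAL51 cells already known, so every value of those kinds below is a description.

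The lines were MDAMB468 and CAL51, both established lines labelled as triple-negative breast cancer, grown without any treatment given in the labels. Each was represented by 1 Drop-seq library, in which a cell is lysed in an oil droplet with a barcoded bead and every captured messenger RNA is tagged near its 3′ end with a unique molecular identifier (UMI). No replicate culture was available, so no difference between the lines has a replicate check, a difference between lines and a difference between libraries cannot be told apart, and no test was run. All intervals are at the 95% level and account for counting error alone.

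For MDAMB468, 306 barcodes with 5501900 UMIs were analysed (median 10016.5 per barcode), and for CAL51 1346 barcodes with 16223444 UMIs (median 8635). A further 31 CAL51 barcodes had a sequence that also occurred in MDAMB468 and were left out. With them kept, the count of members at least 4-fold higher in CAL51 (below) was also 8. Satellite barcodes, 1 base from a deeper barcode of the same line, numbered 64 in MDAMB468 and 7 in CAL51, and without them that count was again 8. ERBB2 gave 39 UMIs in MDAMB468 and 262 in CAL51, ESR1 gave 3 and 0, and PGR gave 1 in each.

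Collagens are secreted proteins of 3 chains wound into a triple helix, which requires glycine to recur at a fixed spacing along each chain. In fibrillar collagens this Gly-X-Y repeat is long and unbroken and the molecules pack into fibrils. Type I collagen holds chains from COL1A1 and COL1A2, type II is built from COL2A1 and is typical of cartilage, type III from COL3A1 accompanies type I, and type V, with chains from COL5A1 and COL5A2, takes part in starting fibrils. Type IV collagen has an interrupted helix and forms the network of basement membranes, most of it from COL4A1 and COL4A2. Type VI forms beaded filaments from COL6A1, COL6A2 and usually COL6A3, and type IX sits on the surface of type II fibrils. In breast tissue most fibrillar collagen is made by fibroblasts, while basement membrane collagen lies under the epithelium and around vessels.

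The repeat can be read in the coding sequence. One coding stretch of 54 bases is shown for each of 6 members, because these members carry most of the results below and because the stretches separate the fibrillar from the type IV chains. Sequences run 5′ to 3′ on the coding strand, with GGN codons, which encode glycine, in capitals, and all lie in coding exons of the gene models of GENCODE release 29 on GRCh38.
COL1A2: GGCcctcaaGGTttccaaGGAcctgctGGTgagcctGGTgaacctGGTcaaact
COL2A1: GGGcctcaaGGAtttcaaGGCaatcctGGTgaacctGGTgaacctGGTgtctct
COL3A1: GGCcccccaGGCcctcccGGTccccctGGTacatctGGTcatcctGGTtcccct
COL5A2: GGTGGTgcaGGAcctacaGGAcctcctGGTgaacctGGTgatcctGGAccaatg
COL4A1: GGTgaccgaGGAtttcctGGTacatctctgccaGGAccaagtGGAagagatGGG
COL4A2: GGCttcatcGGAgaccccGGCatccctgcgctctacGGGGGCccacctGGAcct
Exons are numbered over all exons of the transcript. The 4 fibrillar stretches are whole exons, at chr7:94404693-94404746 (+ strand, exon 8 of COL1A2), chr12:47995710-47995763 (− strand, exon 10 of COL2A1), chr2:188988081-188988134 (+ strand, exon 6 of COL3A1) and chr2:189085719-189085772 (− strand, exon 10 of COL5A2). In each of them a glycine codon opens every group of 3 codons, and in COL5A2 the first group holds a further glycine codon. The type IV stretches, at chr13:110198519-110198572 (− strand, exon 21 of COL4A1) and chr13:110450343-110450396 (+ strand, exon 20 of COL4A2), each span a break, where the spacing of the capitals changes.

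Across whole coding sequences the longest unbroken run of Gly-X-Y triplets was 338 in COL1A1, 339 in each of COL1A2, COL2A1 and COL5A2, and 343 in COL3A1. COL4A1 had 22 runs of at least 5 triplets, the longest of 40 triplets, and COL4A2 had 24, the longest of 66. COL6A1 and COL6A2 each had a longest run of 87 triplets, and COL9A3 of 113. Exons of exactly 54 coding bases numbered 21 in COL1A1 and 24 in each of the other 4 fibrillar genes, against 2 in COL4A1 and 1 in COL4A2. The members also form neighbouring pairs. COL3A1 and COL5A2 lie 19.1 kb apart on chromosome 2, and COL6A1 and COL6A2 lie 93.0 kb apart on chromosome 21. COL4A1 (chr13:110148963-110307233, − strand) and COL4A2 (chr13:110305812-110513209, + strand) overlap by 1422 bases head to head. Strand-specific counting is not stated, so reads from that overlap cannot be assigned to either gene.

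The start sites of COL4A1 and COL4A2 in RefSeq (GRCh38.p14) are 127 bases apart on opposite strands. The 126 bases between them are shown because both genes are read outwards from this stretch and because their levels varied together between cells (below). It lies at chr13:110307158-110307283 and is given on the + strand, the strand of COL4A2, with matches to CCAAT and GGGCGG in capitals.
COL4A1 and COL4A2, between the starts: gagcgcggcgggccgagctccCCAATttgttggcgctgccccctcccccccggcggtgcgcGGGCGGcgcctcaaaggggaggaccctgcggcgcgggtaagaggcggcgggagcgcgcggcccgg
It holds 1 match to CCAAT and 1 to GGGCGG, searched on both strands, and these motifs do not overlap. Among 35116 RefSeq promoter windows of the same build, each reaching from 250 bases before to 50 after a start, 34.61% held CCAAT and 44.95% held GGGCGG. Both motifs are thus common in such windows. The windows are longer than the stretch shown, so the shares do not tell how often a stretch of its length holds them. RefSeq promoter windows were matched for COL4A1, COL4A2 and COL6A2.

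The members were more abundant in CAL51, with COL1A1 and COL9A3 as exceptions. The 10 genes together gave 49 UMIs in MDAMB468 and 6558 in CAL51, which is 8.91 and 404 counts per 1000000 UMIs (CPM). They made up 14.0% of the UMIs of all 41 collagen genes in MDAMB468 and 74.2% in CAL51. A UMI marks 1 molecule whatever the length of the transcript, so levels of different genes are compared as CPM without division by length. Differences between the lines are given as log2 of (CPM + 1) in MDAMB468 minus that in CAL51, a scale on which differences of weakly counted genes come out too small. On it, 8 of the 10 members were at least 4-fold higher in CAL51 and 0 were at least 4-fold higher in MDAMB468. Of the 15347 genes with at least 20 UMIs over both lines, 5.84% were at least 4-fold higher in CAL51 and 7.38% were at least 4-fold higher in MDAMB468. The median difference was −3.98 over the 9 members that reached 20 UMIs and −0.13 over all 15347 genes. As the members were chosen on this contrast, nothing is read from these counts. The 8 are COL1A2, COL2A1, COL3A1, COL5A2, COL4A1, COL4A2, COL6A1 and COL6A2. The smallest differences among them were −2.41 for COL3A1 and −2.78 for COL6A2, and outside the threshold were COL1A1 at 1.57 and COL9A3 at −0.11.

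**Figure D1:**
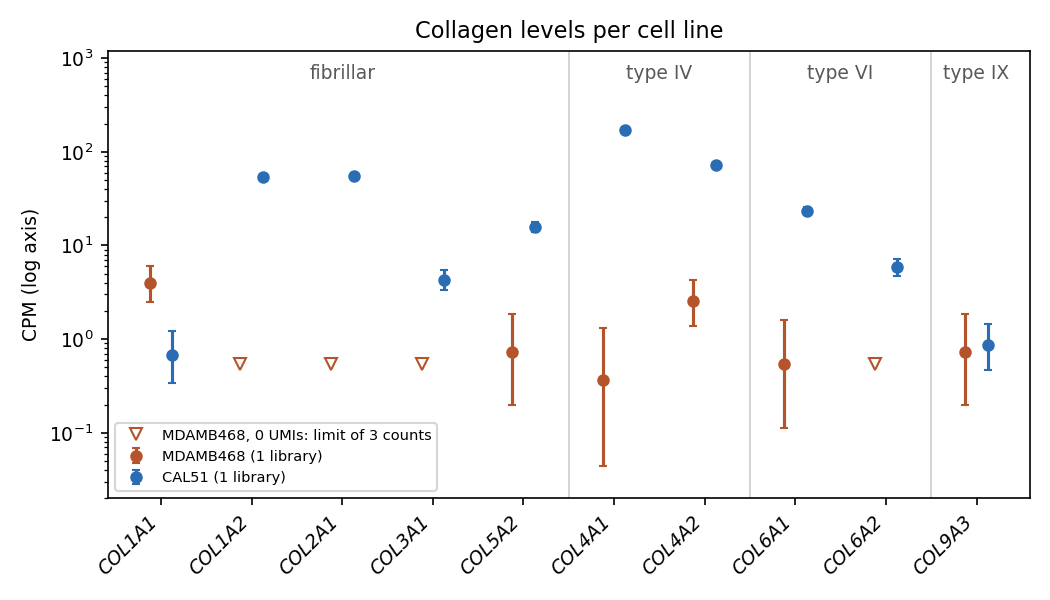
Level of each collagen gene in the MDAMB468 library (orange) and the CAL51 library (blue), in CPM on a log axis, with exact 95% Poisson intervals for counting error; open triangles mark genes with 0 UMIs in MDAMB468, drawn at the limit of 3 counts. The 8 genes from COL1A2 to COL6A2 lie higher in CAL51, COL1A1 lies higher in MDAMB468, and COL9A3 overlaps.

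Among the fibrillar genes, COL1A2, which encodes the second chain of type I collagen (chr7:94394561-94431232, + strand), gave 0 UMIs in MDAMB468 and 863 in CAL51. Its CAL51 level was 53.2 CPM (49.7 to 56.9), at least 97.6-fold higher than the limit of 3 counts allows for MDAMB468. COL2A1, the cartilage collagen gene (chr12:47972965-48004554, − strand), gave 0 and 895 UMIs. Its level in CAL51 was 55.2 CPM (51.6 to 58.9), at least 101-fold higher. COL3A1, whose chain forms type III collagen, gave 0 and 70 UMIs, the CAL51 level being 4.31 CPM (3.36 to 5.45), at least 7.91-fold higher. Taken as up to 3 counts, a count of 0 UMIs allows up to 0.545 CPM in the MDAMB468 library. COL5A2, a type V chain, gave 4 UMIs (0.727 CPM) in MDAMB468 and 256 (15.8 CPM) in CAL51, a 21.7-fold difference (8.37 to 80.3).

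COL1A1 was the exception. It encodes the chain that provides most of type I collagen, and it gave 22 UMIs in MDAMB468 and 11 in CAL51. This was 4.0 (2.51 to 6.05) against 0.678 CPM (0.338 to 1.21), so COL1A1 was 5.90-fold higher in MDAMB468 (2.74 to 13.5). It was the member with the most UMIs in MDAMB468 and the one with the fewest in CAL51. The 22 UMIs came from 16 of the 306 MDAMB468 barcodes, with at most 4 in 1 barcode. Both levels were low, and on the log2 scale with 1 CPM added the difference of 1.57 stayed under the 4-fold threshold.

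The type IV pair was the most abundant. COL4A1 gave 2 UMIs in MDAMB468 (0.364 CPM) and 2799 in CAL51 (173 CPM, 166 to 179), a ratio of 475 with an interval from 131 to 3921. COL4A2 gave 14 UMIs in MDAMB468 (2.54 CPM, 1.39 to 4.27) and 1177 in CAL51 (72.5 CPM, 68.5 to 76.8), a 28.5-fold difference (16.9 to 52.3). Together they held 60.6% of the members' UMIs in CAL51. In MDAMB468 the order of the pair was the reverse, COL4A2 having more UMIs than COL4A1, and their intervals (0.044 to 1.31 CPM for COL4A1) did not overlap.

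Both type VI genes were low in MDAMB468. COL6A1 gave 3 UMIs there (0.545 CPM) and 378 in CAL51 (23.3 CPM, 21.0 to 25.8), a ratio of 42.7 (14.5 to 208). COL6A2 gave 0 and 95 UMIs, with 5.86 CPM (4.74 to 7.16) in CAL51, at least 10.7-fold higher. COL9A3, a type IX chain, gave 4 UMIs in MDAMB468 and 14 in CAL51, or 0.727 CPM (0.198 to 1.86) and 0.863 CPM (0.472 to 1.45), which overlap. With 18 UMIs in all it did not reach the minimum of 20. COL9A3 also shares its place with TCFL5 on the opposite strand, which gave 56 UMIs in CAL51.

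In CAL51 the order of the levels was therefore COL4A1, COL4A2, COL2A1, COL1A2, COL6A1, COL5A2, COL6A2, COL3A1, COL9A3 and COL1A1. The intervals of COL2A1 and COL1A2 overlapped, as did those of COL6A2 and COL3A1 and those of COL9A3 and COL1A1. In MDAMB468, the intervals of COL1A1 and COL4A2 overlapped, and the other 8 members had at most 4 UMIs each.

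Because a collagen molecule needs chains in fixed proportion, the counts of partner chains were set side by side within CAL51, where both come from 1 library. For type I, COL1A2 exceeded COL1A1 by 78.5-fold in UMIs (43.6 to 158), whereas the protein usually holds more chains from COL1A1. For type V, COL5A2 gave 256 UMIs, COL5A1 gave 1 and COL5A3 gave 1, a ratio of COL5A2 to COL5A1 of 256 with a counting interval from 45.5 to 10150.5. For type IV, COL4A1 exceeded COL4A2 by 2.38-fold (2.22 to 2.55). The other type IV genes gave 166 UMIs for COL4A5, 15 for COL4A6 and 0 for COL4A3 and COL4A4. For type VI, COL6A1 exceeded COL6A2 by 3.98-fold (3.17 to 5.04) and COL6A3 by 1.59-fold (1.35 to 1.88). For type IX, COL9A2 gave 101 UMIs, COL9A3 gave 14 and COL9A1 gave 1. These are RNA counts near the 3′ end, how efficiently each transcript was captured was not measured, and they say nothing of the protein.

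**Figure D2:**
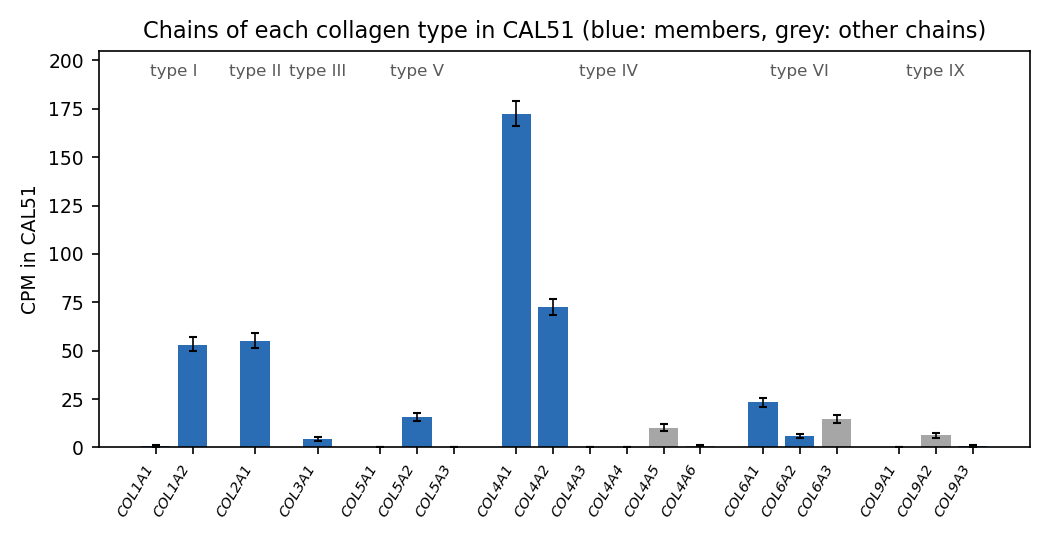
Levels in the CAL51 library of the chains of types I to VI and IX, in CPM, with exact 95% Poisson intervals for counting error; blue bars are the 10 genes followed here and grey bars are other chains of the same types. COL1A1, COL5A1 and COL5A3 are near 0 beside COL1A2 and COL5A2, and COL4A1 at 173 CPM is the highest bar.

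The other 31 collagen genes were read in the same way. Of the 10 that reached 20 UMIs, 3 were at least 4-fold higher in CAL51 and 0 in MDAMB468, with a median difference of −1.62. COL12A1, whose product associates with fibrils, gave 0 UMIs in MDAMB468 and 773 in CAL51, at least 87.4-fold higher. COL26A1 gave 8 and 412 UMIs, and COL18A1, a basement membrane collagen, gave 33 and 446. COL6A3 gave 104 and 237 UMIs, or 18.9 and 14.6 CPM, so that COL6A3, alone of the type VI chains, was present in MDAMB468 at a level that COL6A1 and COL6A2 did not approach. COL4A5 gave 41 and 166 UMIs (7.45 and 10.2 CPM), and COL9A2 gave 7 and 101.

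Collagen chains are hydroxylated, folded and exported by a dedicated machinery in the endoplasmic reticulum, and 20 of its genes were in the files. Of the 18 with at least 20 UMIs, 7 were at least 4-fold higher in CAL51 and 1 was at least 4-fold higher in MDAMB468, with a median of −1.60. PPIB, a prolyl isomerase, had 357 CPM in MDAMB468 and 1193 in CAL51. P4HB, a subunit of prolyl 4-hydroxylase, had 155 and 427 CPM. SERPINH1, the collagen chaperone HSP47, had 52.0 and 171 CPM, and P3H4, a partner of lysyl and prolyl hydroxylases, had 12.4 and 122 CPM. The lowest difference was −4.64 for FKBP10, a collagen prolyl isomerase with 3 UMIs in MDAMB468 and 609 in CAL51. The highest, 4.58, was that of PLOD2, a lysyl hydroxylase with 354 UMIs in MDAMB468 and 28 in CAL51.

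Genes that process collagen outside the cell were split. Of 12 in the files and 8 with at least 20 UMIs, 2 were at least 4-fold higher in CAL51 and 1 in MDAMB468, with a median of −0.59. SPARC, a collagen-binding glycoprotein, gave 3 UMIs in MDAMB468 and 689 in CAL51. PCOLCE, which enhances removal of the procollagen end, gave 28 and 547, and LOXL2, a cross-linking lysyl oxidase, gave 73 and 633. PXDN, the peroxidase that cross-links type IV collagen, went the other way, with 242 UMIs in MDAMB468 and 1 in CAL51 (difference 5.41).

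Partners of type IV collagen in the basement membrane lay on both sides of the line difference. Of 15 genes, 11 reached 20 UMIs, 2 were at least 4-fold higher in CAL51 and 1 in MDAMB468, with a median of −1.32. The laminin genes LAMC1 and LAMB1 had 40.5 and 60.5 CPM in MDAMB468 against 164 and 78.2 in CAL51. LAMB2 had 11.3 and 29.6 CPM. HSPG2, which encodes perlecan, gave 8 and 349 UMIs (difference −3.20). LAMA4, a laminin alpha chain, gave 951 UMIs in MDAMB468 and 14 in CAL51 (difference 6.54).

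Genes linked to cartilage, the usual site of COL2A1 and COL9A3, were also mixed. Of 9 in the files and 5 with at least 20 UMIs, 3 were at least 4-fold higher in CAL51 and 1 in MDAMB468, with a median of −3.01. SOX5 gave 1 UMI in MDAMB468 and 707 in CAL51, and SOX6 gave 0 and 575. These encode factors that act with SOX9 on COL2A1 in cartilage. SOX9 itself gave 729 UMIs in MDAMB468, the line with 0 UMIs of COL2A1, and 3 in CAL51. MATN3, a cartilage matrix gene, gave 1 and 138 UMIs.

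Among 10 collagen receptor genes, 6 reached 20 UMIs, 1 was at least 4-fold higher in CAL51 and 2 in MDAMB468, with a median of 0.58. ITGB1, the beta 1 integrin, had 202 and 477 CPM. DDR2, the discoidin receptor bound by fibrillar collagen, gave 2 UMIs in MDAMB468 and 344 in CAL51, while DDR1 had 51.1 and 20.8 CPM. ADGRG1, a receptor for type III collagen, gave 402 UMIs in MDAMB468 and 4 in CAL51. Of 11 degradation genes in the files, 9 reached 20 UMIs, 2 were at least 4-fold higher in CAL51 and 3 in MDAMB468, with a median of −0.41. MMP14, a membrane collagenase, had 9.27 and 50.4 CPM, and MMP16 gave 0 and 294 UMIs. The inhibitors TIMP1 and TIMP2 had 42.5 and 19.4 CPM in MDAMB468 and 57.0 and 36.4 in CAL51, and TIMP3 gave 311 UMIs in MDAMB468 and 0 in CAL51.

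Markers of cells that make these collagens in tissue differed in part in the same direction. Of 8 fibroblast and pericyte markers in the files, 5 reached 20 UMIs, 3 were at least 4-fold higher in CAL51 and 0 in MDAMB468, with a median of −2.15. Their summed level was 34.0 CPM in MDAMB468 and 122 CPM in CAL51. RGS5 gave 11 and 735 UMIs, FBLN1 gave 169 and 994, ACTA2 gave 3 and 132, POSTN gave 0 and 56, and PDGFRB gave 0 and 44. In CAL51 the highest count in 1 barcode was 63 for RGS5, 22 for POSTN, 15 for ACTA2, 11 for FBLN1 and 2 for PDGFRB. The remaining markers of the list did not reach 20 UMIs, with 1 and 0 for THY1, 1 and 1 for DCN and 2 and 15 for PDGFRA. The part of such cells in the collagen levels was not tested. Of 4 endothelial markers only KDR reached 20 UMIs, with 102 in MDAMB468 and 2 in CAL51, while PECAM1 gave 6 and 4 and VWF and CDH5 each gave 0 and 1. None of 3 immune markers reached 20 UMIs, with 0 and 3 for PTPRC, 3 and 2 for CD68 and 0 and 1 for LYZ. All 8 epithelial markers did, and 5 were at least 4-fold higher in MDAMB468 and 0 in CAL51, with a median of 4.76. KRT8 had 764 and 919 CPM and KRT18 555 and 1555, but KRT19 had 1934 and 30.6, and KRT7 gave 5243 UMIs in MDAMB468 and 0 in CAL51.

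Within CAL51 the members differed in how many cells carried them. COL4A1 was found in 834 of the 1346 barcodes (62.0%), COL4A2 in 578, COL2A1 in 314, COL1A2 in 303, COL6A1 in 263, COL5A2 in 173, COL6A2 in 88, COL3A1 in 34, COL9A3 in 13 and COL1A1 in 10. With every barcode thinned at random to 2500 UMIs, which all barcodes of both lines reached, COL4A1 was found in 28.7% of CAL51 barcodes (26.3% to 31.2%) and in 0% of MDAMB468 barcodes (0 of 306, which as up to 3 barcodes allows a share of up to 0.980%). For COL4A2 the shares were 14.6% (12.7% to 16.6%) and 1.31% (0.357% to 3.31%). For COL1A2 they were 10.6% (9.03% to 12.4%) and 0%, and for COL2A1 10.2% (8.61% to 11.9%) and 0%. The Fano factors, pairs and splits below use a separate random draw at the same depth. COL1A2 was found in 143 CAL51 barcodes in the draw used here and in 159 in that one, and COL2A1 in 137 and 140. RNA released from other cells was not measured, and barcodes below 2501 UMIs were not analysed here.

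The spread between CAL51 cells was described by the Fano factor, the variance over the mean of the thinned counts, which is near 1 when only counting noise separates cells. In 1 random draw it was 1.58 for COL1A2, 1.56 for COL2A1, 1.20 for COL4A1 and 1.08 for COL4A2, the 4 members with a mean of at least 0.1 UMI. Of the 4248 genes with such a mean, 0.965% had a Fano factor of at least 2, which 0 of the 4 members did. A factor of at least 1.5 was reached by 2 of the members, COL1A2 and COL2A1, and by 2.82% of the genes. Averaged exactly over all possible draws, a calculation added after the data had been seen, the factors were 1.59, 1.54, 1.32 and 1.14 in the same order, and 0 and 2 members again passed the 2 thresholds, beside 0.94% and 2.82% of 4256 genes. After removal of counting noise, the coefficient of variation between cells was 1.97 for COL1A2 and 1.96 for COL2A1, against 0.898 for COL4A1 and 0.884 for COL4A2. In less abundant members it was 2.19 for COL5A2, 1.39 for COL6A1 and 6.38 for COL3A1. The value of COL3A1 is imprecise, since it rests on 70 UMIs, 27 of them in 5 barcodes. As variation between CAL51 cells chose the members, these too are descriptions.

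Among the 8 members with at least 20 UMIs in CAL51, COL3A1 had the largest share of its UMIs in few barcodes. Its 70 UMIs came from 34 barcodes, and the 5 barcodes with the most held 27 of them (38.6%), while those barcodes held 0.763% of all UMIs. The 5 richest barcodes of COL1A2 held 7.76% of its UMIs, those of COL2A1 8.94% and those of COL4A1 5.18%. The highest count in 1 barcode was 10 UMIs for COL3A1, 20 for COL1A2, 22 for COL2A1 and 33 for COL4A1.

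**Figure D3:**
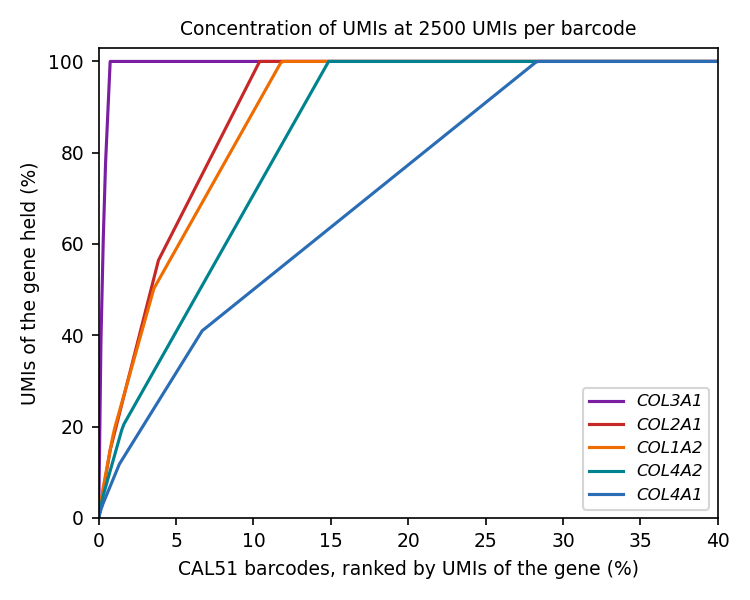
Share of each gene's thinned UMIs (vertical axis, %) held by the richest CAL51 barcodes (horizontal axis, % of 1346 barcodes), each barcode thinned to 2500 UMIs in 1 random draw. A steeper line means fewer cells hold the gene: COL3A1, with 18 UMIs in this draw, rises first, COL2A1 and COL1A2 rise before COL4A2, and COL4A1 rises last.

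Pairs of members were then compared between cells. In 1 random draw of thinned counts, none of the 6 pairs among COL1A2, COL2A1, COL4A1 and COL4A2 reached a Pearson r of 0.2 (n = 1346 barcodes of 1 library), a value that 0.00445% of all gene pairs reached. The highest r was 0.084 for COL4A1 with COL4A2 and the lowest was −0.067 for COL1A2 with COL2A1. For COL4A1 with COL4A2 another random draw gave 0.047, and thinning to 5000 UMIs gave 0.175. Counting noise lowers r in such sparse counts, so the correlation of the underlying levels was also estimated, with counting noise removed over all possible draws. This estimate was added after the data had been seen and is imprecise for genes with few UMIs. It was 0.674 for COL4A1 with COL4A2. Without the 5 richest barcodes of either gene it was 0.697, without satellite barcodes 0.687 and over the 1071 barcodes with at least 5000 UMIs 0.708. Among 1048 genes with a Fano factor of at least 1.1, COL4A2 had the highest value with COL4A1, followed by APLP2 at 0.592 and CTSV at 0.469, and 0.191% of these genes reached 0.5. The points share 1 library and the range of depths.

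COL2A1 and COL3A1 were counted in the same barcodes more often than their totals give. The product of their thinned counts averaged 5.54 times the product of their means, and the underlying r was 0.364, with 0.489 without the 5 richest barcodes of either gene and 0.286 over barcodes with at least 5000 UMIs. For COL1A2 and COL2A1 the average product was 0.489 times the product of the means and the underlying r was −0.13. In 1 random draw 8 barcodes held both, where independence would give 16.5. COL3A1 and COL5A2, the neighbours on chromosome 2, gave 4.17 times the product of their means, with an underlying r of 0.227. These 2 values rest on the 70 UMIs of COL3A1 and were not recomputed without the richest barcodes. For COL6A1 and COL6A2 the average product was 0.978 times the product of the means. No underlying r could be computed for them over all barcodes because COL6A2 showed no variance above counting noise. The same held without the 5 richest barcodes of either gene (1.002 times) and without satellite barcodes (0.973 times). Over the 1071 barcodes with at least 5000 UMIs, however, the product was 1.47 times and the underlying r was 0.703. With 95 UMIs of COL6A2 over all barcodes this estimate is imprecise, and it depended on the barcodes used.

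To set levels side by side, CAL51 barcodes were split by whether their thinned 2500 UMIs held a given member, and levels were computed from the remaining UMIs only. The split, added after the data had been seen, uses cells of 1 library, which are not replicates. In the 140 barcodes with COL2A1, COL2A1 itself was at 248 CPM in the remaining UMIs against 36.0 CPM in the other 1206. COL3A1 was at 16.6 and 2.89 CPM, a ratio of 5.75 (3.06 to 10.5), and COL5A2 at 28.6 and 13.9 CPM, a ratio of 2.05 (1.35 to 3.03). COL1A2 was at 26.8 and 51.9 CPM, a ratio of 0.516 (0.342 to 0.748). The median totals of these barcodes were 8763 and 8635 UMIs. COL4A1 had a ratio of 0.875 (0.745 to 1.02) and COL4A2 of 1.15 (0.914 to 1.42).

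In the 159 barcodes with COL1A2, COL1A2 itself was at 218 CPM in the remaining UMIs against 30.2 CPM in the other 1187. COL4A1 was at 131 and 185 CPM, a ratio of 0.711 (0.606 to 0.829), COL4A2 at 53.8 and 76.5 CPM, a ratio of 0.703 (0.545 to 0.895), and COL5A2 at 23.9 and 14.2 CPM, a ratio of 1.69 (1.12 to 2.48). COL2A1 had a ratio of 0.951 (0.731 to 1.22) in this direction, so the lower level of COL1A2 in the COL2A1 split had no counterpart in COL2A1 here. COL3A1 gave 1 UMI in the barcodes with COL1A2 and 51 in the others, a ratio of 0.169 (0.0042 to 0.983). The 381 barcodes with COL4A1 had 1.41 times the COL4A2 level of the others (1.23 to 1.61) and 1.30 times the COL6A1 level (1.01 to 1.66). In the 58 barcodes with COL5A2, COL3A1 gave 4 UMIs, a ratio of 2.12 with an interval that includes 1 (0.555 to 5.79).

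**Figure D4:**
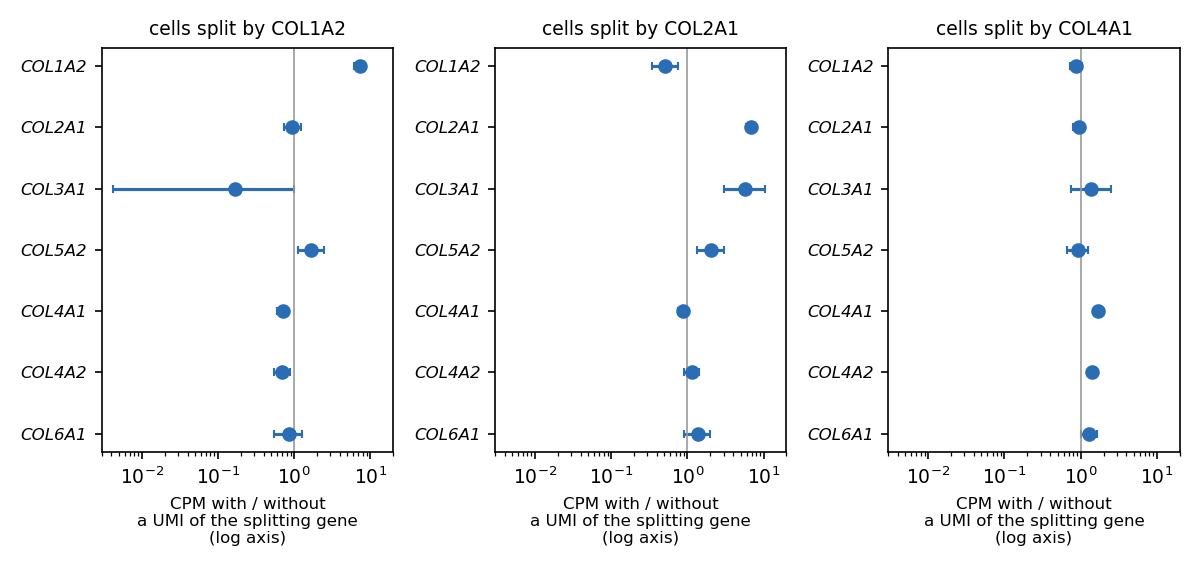
Ratio of CPM in CAL51 barcodes with a thinned UMI of COL1A2 (left), COL2A1 (middle) or COL4A1 (right) to CPM in barcodes without it, on a log axis, with exact 95% intervals for counting error; levels come from UMIs not used for the split and the grey line marks a ratio of 1. COL3A1 and COL5A2 lie to the right of 1 and COL1A2 to the left in the COL2A1 panel, and COL4A2 lies to the right of 1 in the COL4A1 panel.

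The genes whose thinned counts were most correlated with each member, out of 4244, differed between members. For COL2A1 they were GPC3 (a cell surface glypican, r = 0.275), BEX1 (0.230) and NTS (neurotensin, 0.199). COL1A2 had CD24 (a surface glycoprotein, r = 0.218), CA2 (a carbonic anhydrase, 0.166) and PDLIM1 (0.15). COL4A1 had APOC1 (0.197), APLP2 (0.174) and APOE (0.131), and COL4A2 had APLP2 (0.148), AFAP1L2 (0.10) and BCAT1 (0.098). The r of COL1A2 with GPC3 was −0.18 and that of COL2A1 with CA2 was −0.14. All are weak correlations in sparse counts over 1346 barcodes of 1 library.

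Groups of CAL51 cells were also formed without any of the 41 collagen genes, which left 4 clusters of 437, 361, 301 and 247 barcodes, numbered 0 to 3. Leading genes were CD44, DEFB1 and APOE in cluster 0, CD24 and EPCAM in cluster 1, NTS, ANKRD1 and ACTC1 in cluster 2, and the mitotic genes PLK1, CENPE and AURKA in cluster 3. COL2A1 had 18.4, 11.4, 174 and 47.3 CPM in clusters 0 to 3, and 65.6% of its UMIs were in cluster 2. The highest of its levels was 15.4 times the lowest (11.1 to 21.8). COL3A1 had 0.490, 0.291, 17.2 and 2.42 CPM, with 58 of its 70 UMIs in cluster 2. With its 5 richest barcodes left out, 72.1% of the remaining COL3A1 UMIs were still in cluster 2.

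COL1A2 was highest elsewhere. It had 26.0, 125, 32.4 and 50.01 CPM in clusters 0 to 3, a range of 4.82-fold (4.01 to 5.82), with 49.8% of its UMIs in cluster 1. COL5A2, lowest in cluster 0, had 7.02, 18.3, 25.9 and 19.1 CPM, a range of 3.68-fold (2.53 to 5.44). COL4A1 had 208, 136, 169 and 147 CPM, and COL4A2 had 85.9, 56.5, 79.4 and 57.6 CPM, with the highest value in cluster 0 and the lowest in cluster 1 and ranges of 1.53-fold (1.37 to 1.70) and 1.52-fold (1.29 to 1.80). The intervals of clusters 1 and 3 overlapped for both genes, those of clusters 2 and 3 for COL4A1, and those of clusters 0 and 2 for COL4A2. COL6A1 had 25.5, 21.3, 23.2 and 21.5 CPM, and COL6A2 6.37, 5.82, 6.54 and 4.24 CPM, with overlapping intervals. Of the 6 members with at least 200 UMIs, 3 (COL1A2, COL2A1 and COL5A2) had a range of at least 2-fold, beside 5.2% of the 7940 genes with at least 200 UMIs, some of which were used to form the clusters. The median depths were 9639, 7253, 8122 and 9908 UMIs.

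**Figure D5:**
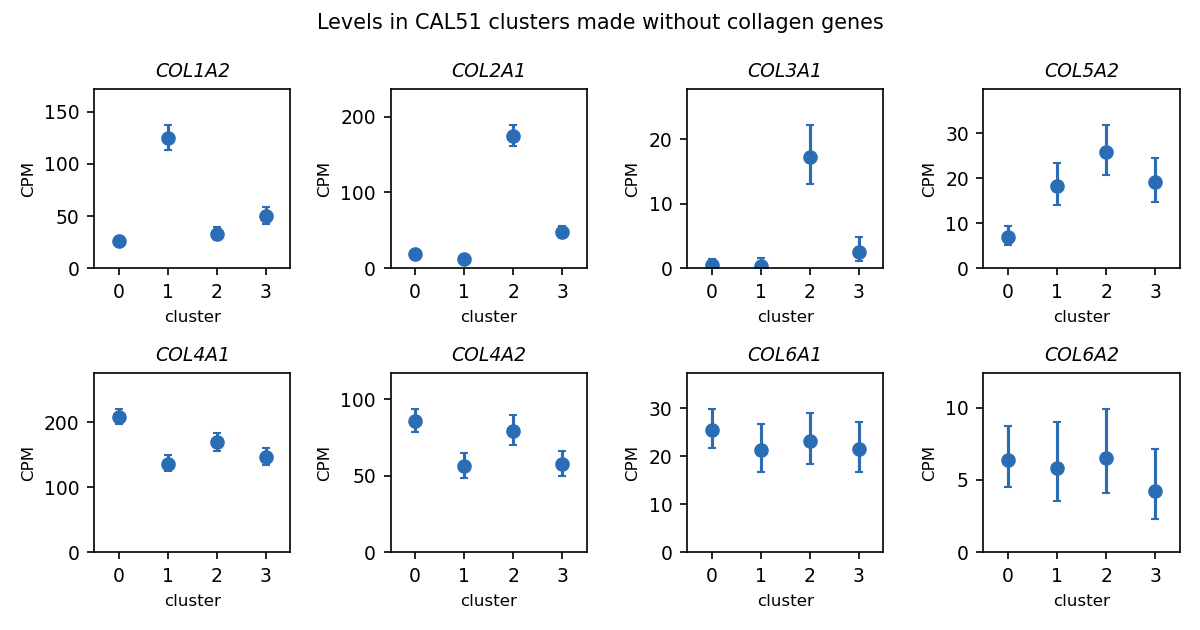
CPM of 8 collagen genes in the 4 CAL51 clusters made without collagen genes, with exact 95% Poisson intervals for counting error; each panel has its own axis from 0. COL2A1 and COL3A1 are highest in cluster 2, COL1A2 is highest in cluster 1, and COL6A1 and COL6A2 show overlapping intervals in all 4 clusters.

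Other genes of the collagen system were read in the same clusters. SPARC had 25.0, 34.7, 85.0 and 39.7 CPM in clusters 0 to 3 and was highest where COL2A1 and COL3A1 were. COL12A1 was also highest in cluster 2, with 32.0, 43.4, 75.2 and 53.04 CPM, as was COL26A1 with 20.1, 20.4, 44.6 and 20.9 CPM. SERPINH1 had 165, 144, 224 and 159 CPM, its highest again in cluster 2. P3H4, COL4A5 and COL9A2 were highest there too. Other genes were not. COL18A1 was highest in cluster 1, with 25.6, 35.8, 27.6 and 22.1 CPM, as was LAMB1 with 64, 93.2, 88.3 and 78.5 CPM. MATN3 was highest in cluster 3, with 4.90, 10.8, 9.21 and 12.1 CPM. FKBP10 had 31.8, 45.4, 45.8 and 31.5 CPM. COL6A3 and LAMC1 had overlapping intervals in all 4 clusters. SOX5 had 47.3, 36.1, 38.9 and 49.1 CPM and SOX6 had 35.4, 28.5, 40.4 and 37.6 CPM, in both cases with overlapping intervals. The pericyte marker RGS5, one of the leading genes of cluster 2, had 96.0 CPM there and 32.0 CPM in the other clusters, and its part in the levels of COL2A1 and COL3A1 was not tested.

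Cell cycle phase was called from gene lists that hold no collagen, giving 125 barcodes in G1, 405 in S and 816 in G2 or M phase. COL5A2 had 31.0, 13.4 and 14.9 CPM in these phases, COL6A1 had 38.2, 19.5 and 23.0, and COL2A1 had 77.9, 60.7 and 50.5, each a range of at least 1.5-fold. Of the same 6 members these 3 had such a range, beside 24.9% of the 7940 genes. COL4A1 had 223, 173 and 166 CPM. The order of the phases was not stable, since with phases called at 1000 UMIs COL2A1 was lowest in G1 (35.4 CPM) and COL6A1 too (18.7 CPM), so no phase can be named for these genes.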

How the data were processed

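Single-cell libraries of MDAMB468 and CAL51 (1 each) were made with Drop-seq, per the labels' protocols. The deposited values are raw UMI counts for 1683 barcodes, for which the submitters' processing notes name STARsolo. Its settings, the annotation and the genome build are not stated in the sources used here. Barcode names gave the line, and symbols were matched for 30730 of 30796 gene identifiers.

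Counts were summed per line, cluster or phase and scaled to 1000000 UMIs. Ratios carry exact conditional intervals, sums exact Poisson intervals and shares exact Clopper-Pearson intervals, at 95%. A count of 0 was set to 3 counts per library for bounds. The 20 UMI minimum applied to both lines together. Barcodes were thinned to 2500 UMIs for Fano factors, correlations and phases. Clustering used scanpy 1.11.5 and leidenalg 0.10.2 (2000 variable genes, 30 principal components, 15 neighbours, resolution 0.5). Scrublet called 0 of 1652 barcodes as doublets at an expected rate of 0.05, so it has not worked here, and doublets remain. Python 3.11.15, numpy 2.4.6 and scipy 1.17.1 were used, with edgeR 4.0.16 for TMM factors alone. Calculations were tested on simulated data.

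The members and gene lists were chosen with earlier results of these data known. Named genes are all members, other collagens with at least 100 UMIs in a line, the 4 genes of each list with most UMIs in either line and its highest and lowest difference, and the 3 best correlates of members with a mean of at least 0.1 UMI. CTSV, SERPINH1 by cluster and other genes outside that rule were chosen after their values were seen. Alternatives covered the pseudocount, scaling, filters, depth, seed and clustering.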

Additional observations from a re-analysis of the deposited data

Results flagged for a closer look

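COL2A1 and COL4A1 gave a signal in barcodes that the comparisons left out. The 31 CAL51 barcodes whose sequence also occurs in MDAMB468 held 135240 UMIs, 0.827% of the CAL51 total. Among these were 4 UMIs of COL2A1, or 29.6 CPM (exact Poisson interval 8.06 to 75.7), and 5 UMIs of COL4A1, or 37.0 CPM (12 to 86.3). Both lie above the level in MDAMB468, where COL2A1 gave 0 UMIs and COL4A1 gave 2. The used CAL51 barcodes had 55.2 CPM of COL2A1, inside the interval, and 173 CPM of COL4A1, above it. The same 31 barcodes also held 106 UMIs of KRT7 and 40 of KRT5. These are the 2 epithelial markers with 0 UMIs in the used CAL51 barcodes, and they gave 5243 and 2224 UMIs in MDAMB468. The 31 barcodes therefore cannot be read as CAL51 cells alone, and the part of MDAMB468 RNA in them was not tested.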

How the results depend on the processing

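The count of 8 members at least 4-fold higher in CAL51 was the same with 0.1 CPM added, under 3 other scalings, with shared barcodes kept, without satellite barcodes, over barcodes with at least 5000 UMIs and without the minimum of 20 UMIs. In those settings the share of all genes ran from 2.91% (no minimum) to 9.65% (0.1 CPM added). With 10 CPM added the count was 4, beside 1.73% of all genes, since an added constant pulls low genes together. Other scalings moved the median difference of all genes by −0.12 (TMM), −0.13 (median of ratios) and 0.10 (totals without mitochondrial and ribosomal protein genes). Members with a Fano factor of at least 2 numbered 0, or 2 at 5000 UMIs, and members with at least 1.5, a threshold chosen after the data were seen, numbered 2, or 0 at 1000 UMIs and 3 at 5000 UMIs, the Fano factor being smaller at lower depth by construction. The 3 members with a 2-fold range over clusters became 6 at resolution 1.0, with 9 clusters, and were 2 at resolution 0.3, where COL1A2 had a range of 1.62-fold. The share of all genes was not computed at these other depths and resolutions, so nothing is read from those counts. The count of member pairs with r of at least 0.2 was 0 in every setting run. The Fano factor of COL3A1 was 2.54 in 1 draw and 1.48 over all draws. No paired analysis was possible because each line has 1 library. With 1 library a line, no setting measures variation between cultures, and members under about 100 UMIs (COL1A1, COL3A1, COL6A2, COL9A3) are limited by counting error.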
